A study of Sus scrofa with 6 samples.

Results

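Heat shock proteins and other chaperone genes were followed in the backfat of intact and castrated male pigs. Genes were taken by symbol: those beginning with HSP (HSPG2 excepted), DNAJ, BAG or CCT and a digit, together with CRYAB, TCP1 and SERPINH1. This gave 58 genes on 96 probe sets, out of 6765 genes with a single symbol and 23999 non-control probe sets on the array. Each gene was read from its brightest probe set. The pigs were crosses of Pietrain sires with Landrace dams, 15 pairs of full brothers. Boars kept their testes, and barrows had both testicles removed under anaesthesia at 7 days of age. Apart from castration the labels describe both groups alike, with weaning at 30 days, free access to feed and slaughter at 175 days. RNA of the middle backfat layer at the 6th rib was pooled from 5 animals per array, which gave 3 boar and 3 barrow arrays. Each replicate is a pool, so single pigs cannot be seen, and every p-value rests on pool-to-pool spread. Brothers were split between a boar and a barrow pool, though equal replicate numbers are not said to be brother pools.

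Chaperones bind proteins that are unfolded, newly made or damaged and keep them from clumping. HSP70 proteins bind and release clients in an ATP cycle that J-domain proteins (the DNAJ genes) start and that nucleotide exchange factors such as BAG proteins and HSPH1 end, while HSP90 acts later on more folded clients such as steroid receptors and kinases. Small heat shock proteins (HSPB1, HSPB6 and CRYAB among them) hold unfolded proteins without ATP and protect the cytoskeleton, and the ring-shaped chaperonins enclose clients, TCP1 and the CCT proteins in the cytosol and HSPD1 with HSPE1 in mitochondria. The receptors for androgen and glucocorticoid depend on HSP90 and HSP70 to bind their ligands. In fat, adipocytes carry these systems along with vascular and stromal cells, and in such bulk samples fewer cells of a type and less RNA per cell cannot be told apart.

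The 6 arrays overlapped between the groups in median signal and in the ratios of 3' to 5' control probe sets. Their median signals ran from 162 to 173, and the log2 ratio of 3' to 5' control probe sets overlapped between the groups, at 1.99 to 2.13 in boars and 1.85 to 2.13 in barrows for actin, and at 1.25 to 1.36 and 1.09 to 1.44 for GAPDH. Adipocyte genes were bright: 6 of 9 listed markers were on the array, ADIPOQ and FABP4 among them, and summed to 67831 to 73289 signal units in boars and 65276 to 72010.0 in barrows. Leptin (LEP) was the 1 of these 6 that rose (difference 0.58, limma adjusted p = 0.021, beside 0.701% of all tested probe sets higher), a call lost without the intensity trend, with means of probe sets, and without boar replicate 1, boar replicate 3 or barrow replicate 1. Along the first principal component (31.6% of the variance) the groups did not overlap. Boars lay at -15.5, -2.24 and -17.2 and barrows at 9.49, 21.4 and 4.12 (replicates 1 to 3). Barrow replicate 2 thus lay at the far end of this component. It also had the lowest median signal and the lowest ratio for both actin and GAPDH.

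As a group, chaperone genes were close to level between boars and barrows. Of the 58 genes, 55 passed the filter on dim probe sets and were tested. CRYAB, the small heat shock protein alpha-B crystallin, rose in barrows, and no chaperone gene fell at a limma adjusted p under 0.05 (adjusted over all 14399 tested probe sets). The share of tested genes called higher, 1.82%, stood beside 1.16% of all tested probe sets called, 0.701% higher and 0.458% lower. That count of calls is too small to set the chaperones apart from the rest. With the replicate number as a block 3 rose, CRYAB, HSPB6 and HSPA12A (5.45%, where 2.35% of all tested probe sets were called, 1.49% higher and 0.854% lower). The median difference, barrow minus boar in log2(signal + 16), was 0.030 over the 55 genes and -0.014 over all tested probe sets. Differences lay above 0 in 30 of the 55 (54.5%, against 46.6% of all tested probe sets) and below 0 in 25. They ran from -0.37 for HSPBP1, a dim gene whose barrow levels may be background, to 0.60 for CRYAB. Of the 5356 tested genes with a symbol, each read from its brightest probe set, 2598 lay above 0, with a median of -0.0053. Of these 52 were called higher and 29 lower, and 114 and 52 with the block. An unadjusted p under 0.05 was found for 7 chaperone genes with higher and 2 with lower signal in barrows, 12.7% and 3.64%. The share was 12.2% of all tested probe sets in either direction (5.96% higher and 6.22% lower). Counted by gene, 379 of the 5356 were higher and 355 lower at this level. The pools of the groups did not overlap in 6 genes with barrows above and 3 with barrows below, 10.9% and 5.45%, against 18.1% of all tested probe sets (8.38% above and 9.76% below). Counted by gene, 510 of the 5356 had no overlap with barrows above and 539 with barrows below. The 95% confidence interval of the difference lay within 0.5 on either side of 0 for 39 of the 55 genes, and within 1 for all 55. The arrays thus bound most of these genes to modest changes, while smaller ones within the intervals were not detectable with this number of arrays.

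**Figure D1:**
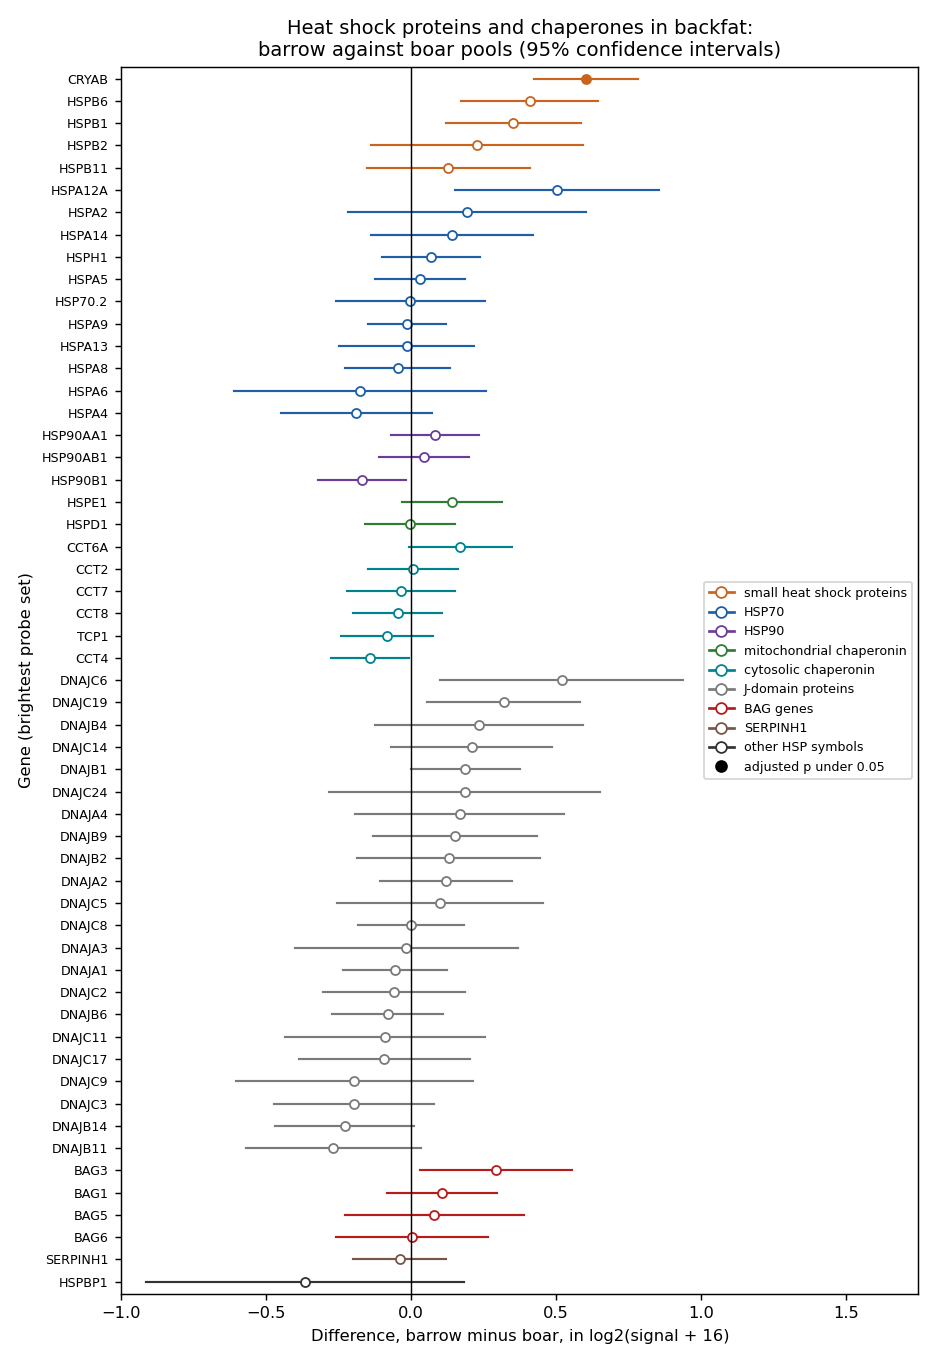
Difference between barrow and boar pools in log2(signal + 16) for the 55 tested chaperone genes, grouped by family, with lines for the 95% confidence interval of the limma fit and a filled point where the adjusted p was under 0.05. CRYAB is the filled point, at 0.60, and the 5 small heat shock protein genes at the top all lie to the right of 0.

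Of the small heat shock protein genes CRYAB rose in barrow fat. All 5 tested genes of the family had differences above 0, with a median of 0.35 and a range of 0.13 to 0.60, and 1 passed the threshold. In 3 of the 5, CRYAB, HSPB1 and HSPB6, every barrow pool lay above every boar pool, which was the case for 8.38% of all tested probe sets. The other 3 genes of the family, HSPB3, HSPB7 and HSPB8, lay below the filter on dim probe sets.

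CRYAB encodes a small heat shock protein of lens and muscle that binds desmin and other filaments. Its brightest probe set gave signals of 1509.8, 1434 and 1407 in boar replicates 1 to 3 and 2129.5, 2374 and 2135 in barrow replicates 1 to 3, the order used for all pools below. The lowest barrow pool thus stood well above the highest boar pool, and the means were 1450.2 ± 53.4 and 2213 ± 139 (SD, n = 3 each). The fold was 1.52 (95% CI 1.34 to 1.72, log2 difference 0.60, SE 0.081, limma adjusted p = 0.0079). The call was lost without boar replicate 1 (limma adjusted p = 0.054), without boar replicate 3 (0.060) and without the intensity trend (0.071). The gene's other probe set, with 56, 60 and 76.6 in boars and 62.5, 41.8 and 71.4 in barrows, was below the filter with overlapping groups, and averaging both gave a difference of 0.24 (limma adjusted p = 0.44).

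HSPB6, also called HSP20, is abundant in muscle and vessel walls. Its boar pools gave 924, 731 and 812 and its barrow pools 1153, 1016 and 1112. No boar pool reached the lowest barrow pool. The difference was 0.41 (95% CI 0.17 to 0.65, 1.33-fold). It missed the threshold at a limma adjusted p of 0.12 and passed it at 0.043 with the block. Its other probe set pointed the same way with overlapping groups, at 0.21 (limma adjusted p = 0.50). HSPB1, or HSP27, is a heat-inducible partner of CRYAB that guards actin filaments. It read 3508, 3747 and 2984 in boars and 4914, 3932 and 4242 in barrows. Boar replicate 2 and barrow replicate 2 came close to each other, while the other pools were well apart. HSPB1 differed by 0.35 (95% CI 0.12 to 0.59, limma adjusted p = 0.17), and it passed when arrays were weighted (limma adjusted p = 0.043).

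HSPB2, a muscle-enriched member that partners HSPB3, is the direct neighbour of CRYAB in the RefSeq table (Sscrofa11.1), with no gene listed between them. Its boar pools gave 319, 315 and 240.4 and its barrow pools 346, 409 and 280.0, and the groups overlapped (difference 0.23, 95% CI -0.14 to 0.59, limma adjusted p = 0.64). HSPB11, which carries the family's symbol but is known as a transport protein of cilia, differed by 0.13 (limma adjusted p = 0.76). Of the dim genes, HSPB8, the partner of BAG3 in clearing damaged proteins, gave 77.7, 18.6 and 78.9 in boars and 113, 79.4 and 135 in barrows. The lowest barrow pool of HSPB8 stood just above the highest boar pool, but levels this low may be background. HSPB7 gave 84.6, 142 and 66.2 and 149, 51.9 and 90.3, and HSPB3 was at 27 or less on every array.

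**Figure D2:**
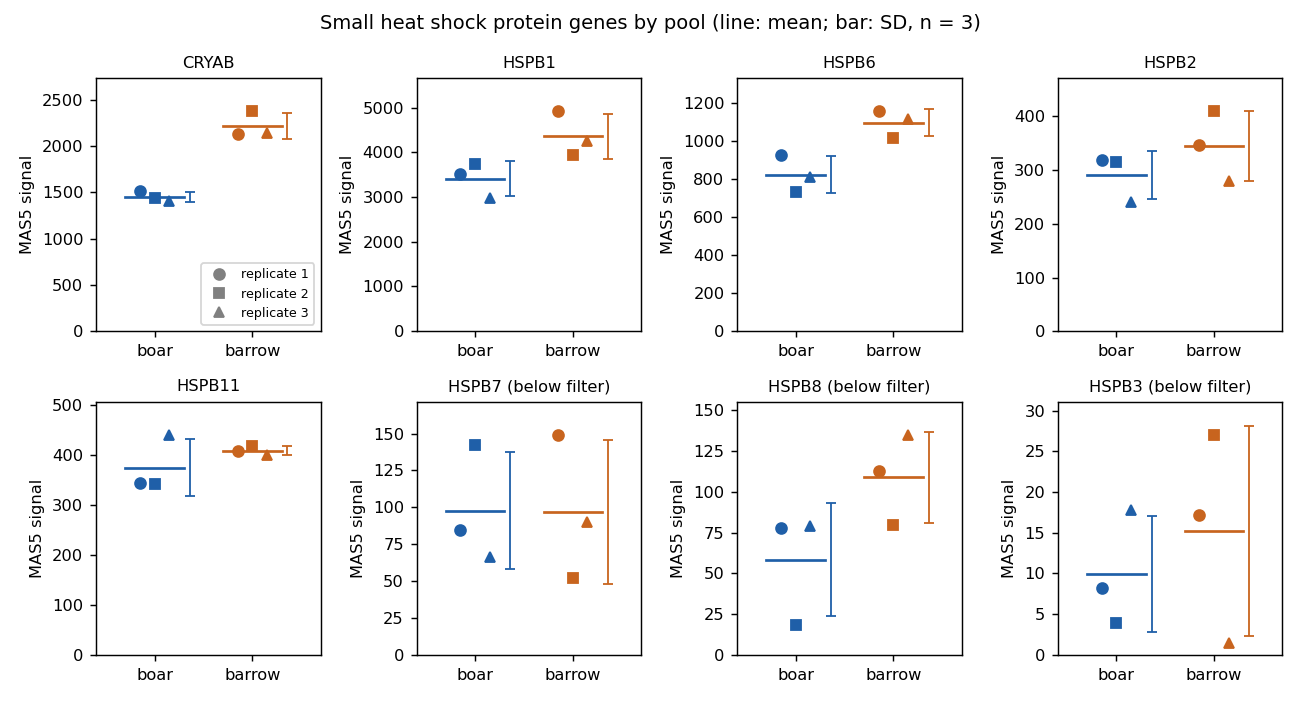
MAS5 signal (linear scale from 0) of the 8 small heat shock protein genes in each pool, with symbols for the replicate number, a line for the group mean and a bar for the SD (n = 3). Barrow points of CRYAB, HSPB1 and HSPB6 all lie above the boar points, whereas HSPB2, HSPB11, HSPB7 and HSPB3 overlap.

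Since CRYAB, HSPB2, HSPB3, HSPB6 and HSPB7 are abundant in muscle, muscle markers were read beside them. Of 18 skeletal muscle markers 14 were on the array and none passed the filter. Their summed signal was 248 to 333 in boars and 312 to 451 in barrows. In the whole list 9 of the 14 had differences above 0 and 5 below, untested, and the pools did not overlap in 4 with barrows above and 1 with barrows below. Of all tested probe sets 8.38% had no overlap with barrows above and 9.76% with barrows below. These shares leave out probe sets below the filter, so they are no like background for the muscle list. The 14 muscle genes lay below the filter, where levels may be background. Creatine kinase CKM was at 82.4 to 83.7 in boars and 59.3 to 92.9 in barrows, and the myosin MYH2 was at 8.75 or less on every array. The 5 genes with differences below 0 were CKM, MYH2, MYH7, MYL1 and MYBPC1. Of these MYH2 was the 1 without overlap, with 3.14, 4.08 and 8.75 in boars and 1.3, 1.05 and 1.49 in barrows. The 4 genes with barrows above were NEB, TNNC1, TNNT3 and TNNI1. Nebulin, NEB, the giant protein of thin filaments, gave 32.4, 71 and 27.8 in boars and 106, 112 and 99.6 in barrows. The slow troponin TNNC1 gave 14.1, 11.2 and 2.12 in boars and 62.3, 16.7 and 68.4 in barrows. The fast troponin TNNT3 gave 4.58, 2.83 and 1.74 and 70.6, 8.31 and 5.6. The part of muscle in the small heat shock protein values was not tested. Of 9 smooth muscle and pericyte markers 8 were tested and none passed, with 4 above and 4 below 0. KCNJ8, a pericyte potassium channel, fell with the replicate block (difference -0.49, limma adjusted p = 0.057, and 0.048 with the block). The sum of the 8 overlapped, at 18603 to 20764 in boars and 15007 to 19407 in barrows. The pools did not overlap in 2 of the 8 with barrows below and in 0 with barrows above (9.76% and 8.38% of all tested probe sets). ACTA2, 1 of these 2, gave 10128, 9113 and 10257 in boars and 9104, 6194 and 8564 in barrows (difference -0.32, limma adjusted p = 0.32). Desmin, DES, the filament bound by CRYAB, gave 113, 135 and 117 in boars and 209, 106 and 226 in barrows (difference 0.46, limma adjusted p = 0.52).

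Among gland and epidermal markers PIP was higher in barrows (limma adjusted p = 0.018), but it passed the filter only through the barrow pools, so its call is given as a description. The call was lost without the intensity trend and without boar replicate 1 or 3, and PIP was not tested with a pseudocount of 1 or among the upper 40% of probe sets. Of 7 listed, 5 were on the array and 2 were tested, and their sum was 195 to 320.1 in boars and 528 to 1849 in barrows. PIP, a protein secreted by glands, gave 13.7, 3.83 and 29.9 in boars and 207, 1508 and 219 in barrows. EPCAM and KRT19 stayed below the filter on the mean, at 40 or less and 10.4 or less in boars, and at 71.7 to 93 and 49.6 to 77.9 in barrows. KRT18 overlapped below the filter. KRT8 overlapped and had a difference of -0.20, and KRT5 and KRT14 were not analysed here. The part of gland cells in the CRYAB result was not tested. Of 7 tested endothelial markers all had differences below 0, and 1, TEK, fell (difference -0.47, limma adjusted p = 0.047, beside 0.458% of all tested probe sets lower). That call was lost with no filter, with centred arrays, without the trend, with means of probe sets, and without boar replicate 1 or 3 or barrow replicate 1 or 3. The endothelial sum was 15022 to 15746 in boars and 13504 to 13879 in barrows, with no overlap. Of 6 tested macrophage markers 5 had differences below 0 (median -0.28) and none passed. In 3 of them every barrow pool lay below every boar pool, as in 9.76% of all tested probe sets. C1QA, a complement subunit, fell with the block (difference -0.44, limma adjusted p = 0.13, and 0.035 with the block). The macrophage sum overlapped, at 7234 to 9363 in boars and 6658 to 8036 in barrows. Of 6 tested stromal markers none passed, while with the block DPT fell (difference -0.32, limma adjusted p = 0.041) and FBLN1 rose (difference 0.50, limma adjusted p = 0.047). The part of these shifts in any chaperone difference was not tested.

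In the HSP70 family HSPA12A rose with the replicate block, and no other gene passed. Without the block none of the 11 tested genes passed, 5 had differences above 0 and 6 below, and the median was -0.0028. The stress-inducible HSP70 of the cytosol is listed as HSP70.2, for which the RefSeq table gives the synonyms HSPA1A and HSPA1B, and near-identical copies of this gene may share its probes. Its brightest probe set gave 5380.4, 4469 and 5506 in boars and 5333, 4282 and 5765 in barrows. Replicate 2 was the lowest pool of both groups, and the groups overlapped almost completely. The difference was -0.0028 (95% CI -0.26 to 0.25, limma adjusted p = 0.99), a value so near 0 that its sign turned when arrays were centred on their median or weighted. The 2 other probe sets of HSP70.2 had -0.019 and -0.0040. HSPA6, an inducible relative, was dim at 134 to 209 in boars and 138 to 185 in barrows (difference -0.17, 95% CI -0.61 to 0.26, limma adjusted p = 0.79).

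HSPA8, the constitutive HSP70 that also strips clathrin from vesicles, gave 7317, 7369.6 and 7449 in boars and 7606, 6287 and 7632 in barrows. Barrow replicate 2 was the low one, and the other pools lay together (difference -0.046, 95% CI -0.23 to 0.14, limma adjusted p = 0.89). HSPA9, the mitochondrial HSP70 that pulls proteins through the import channel, varied little, with 6052, 6089.8 and 6209 in boars and 5964, 6164 and 6056 in barrows. Its interval was -0.15 to 0.12 and its within-group SD 0.022 on the log2 scale, against a median of 0.15 over all tested probe sets. HSPA5, or BiP, the HSP70 of the endoplasmic reticulum, differed by 0.030 (95% CI -0.13 to 0.19, limma adjusted p = 0.91), and the exchange factor HSPH1 by 0.069 (95% CI -0.10 to 0.24, limma adjusted p = 0.78). The remaining HSPA4, HSPA13 and HSPA14 ran from -0.19 to 0.14 with limma adjusted p of 0.58 or more.

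HSPA12A, a distant relative of HSP70 that lacks the usual client-binding part, gave 526, 774 and 558 in boars and 726, 980.1 and 930.5 in barrows. The groups overlapped, because boar replicate 2 exceeded barrow replicate 1. Within each replicate number the barrow pool was higher, by 0.45, 0.33 and 0.72 on the log2 scale for numbers 1, 2 and 3. The difference was 0.50 (95% CI 0.15 to 0.85, 1.42-fold), and its limma adjusted p was 0.20 unpaired and 0.046 with the block. HSPA2, a testis-enriched HSP70 also made in other tissues, also followed the numbers. Its boar pools gave 655, 448 and 672 and its barrow pools 733, 513 and 792. Number 2 was low in both groups and barrows were higher by 0.16, 0.19 and 0.23 within numbers, yet the adjusted p stayed at 0.75 (limma) and 0.34 (limma with the block). Over all 55 genes, the barrow pool exceeded the boar pool of the same number in all 3 numbers for 15 genes (27.3%, against 17.5% of all tested probe sets) and was below it in all 3 for 8 (14.5%, against 20.5%).

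**Figure D3:**
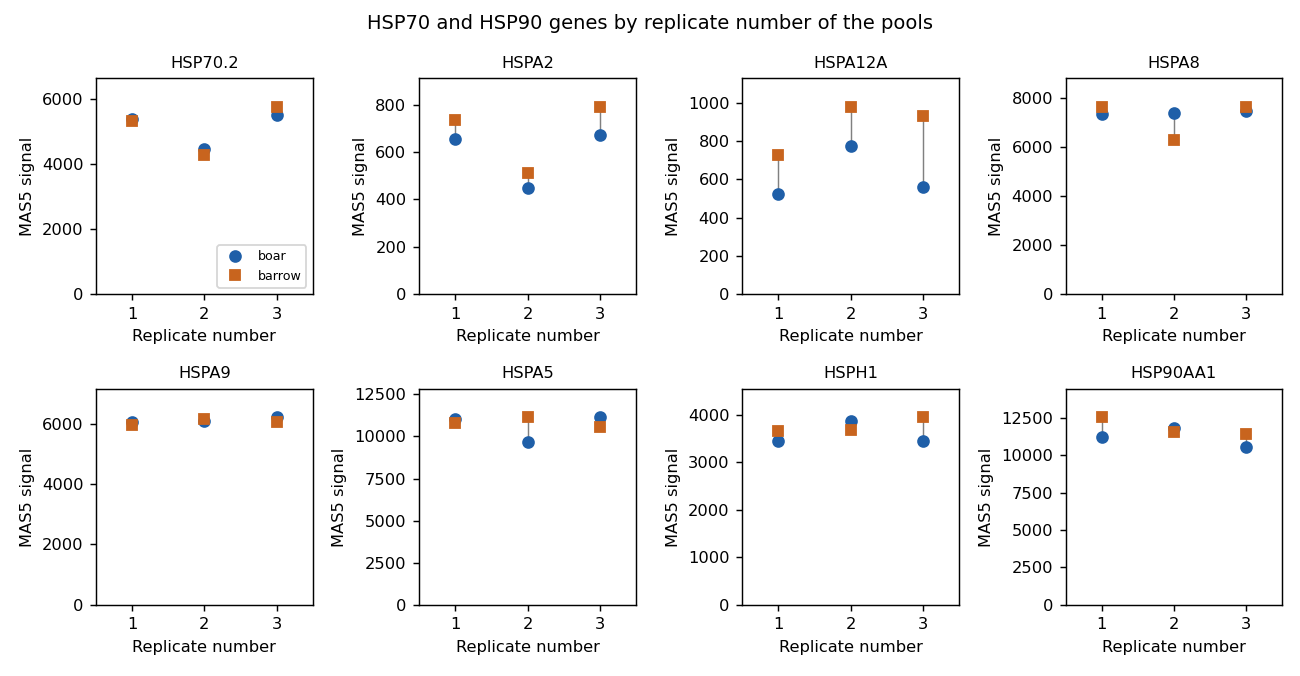
MAS5 signal (linear scale from 0) of 7 HSP70-family genes and HSP90AA1 by replicate number, with circles for boar and squares for barrow pools and a grey line joining pools of one number. HSP70.2 and HSPA2 are lowest in number 2 of both groups, and the HSPA12A and HSPA2 squares lie above the circles in all 3 numbers.

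Among the HSP90 genes the cytosolic forms did not differ detectably and the form of the endoplasmic reticulum had lower signals without passing. HSP90AA1, the inducible cytosolic form, gave 11211, 11830.4 and 10518 in boars and 12538, 11555 and 11424 in barrows (difference 0.082, 95% CI -0.070 to 0.23, limma adjusted p = 0.70), with 0.088, 0.050, -0.12 and 0.12 in its 4 other probe sets. HSP90AB1, the constitutive form, had 0.045 (95% CI -0.11 to 0.20, limma adjusted p = 0.87). HSP90B1, or GRP94, which folds integrins and toll-like receptors in the endoplasmic reticulum, gave 6370.5, 5839 and 6027 in boars and 5682, 5272 and 5272 in barrows. Every barrow pool lay below every boar pool, as in 9.76% of all tested probe sets. The difference was -0.17 (95% CI -0.32 to -0.016, limma adjusted p = 0.35, and 0.19 with the block), and a second probe set had -0.16.

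The other chaperones of the endoplasmic reticulum did not pass the test. DNAJB11, a J-domain partner of HSPA5, gave 495, 434 and 501 in boars and 345, 472 and 370.0 in barrows, with barrow replicate 2 inside the boar range (difference -0.27, 95% CI -0.57 to 0.033, limma adjusted p = 0.48). DNAJC3, which restrains the kinases that halt translation under stress, differed by -0.20 (limma adjusted p = 0.58), and DNAJB9, another partner of HSPA5, by 0.15 (limma adjusted p = 0.70) with its highest signal, 2489.8, in barrow replicate 2. SERPINH1, or HSP47, the chaperone dedicated to collagen, gave 4270.0, 3868 and 4176 in boars and 4167, 3967 and 3843 in barrows. The collagen chaperone thus overlapped between the groups, with a difference of -0.039 and a 95% CI of -0.20 to 0.12 (limma adjusted p = 0.89).

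The cytosolic chaperonin varied little between pools, with a median within-group SD of 0.059 on the log2 scale. In its ring 6 subunits were tested, none passed, and differences ran from -0.14 for CCT4 to 0.17 for CCT6A. CCT4 gave 6484, 6610.0 and 6496 in boars and 5869, 5899 and 5974 in barrows. These pools were tight within each group, and all barrow pools lay below the boar pools, but the limma adjusted p was 0.38 (difference -0.14, 95% CI -0.28 to -0.0087). CCT6A gave 2174, 2193 and 1992 and 2544, 2341 and 2274, with barrows above boars, while its second tested probe set had barrows below boars (-0.073). The ring's subunits work in equal number, and TCP1, CCT2, CCT7 and CCT8 had -0.083, 0.0067, -0.035 and -0.046. The mitochondrial pair HSPD1 (HSP60) and HSPE1 (HSP10), neighbouring genes in the RefSeq table, had -0.0041 (95% CI -0.16 to 0.15, limma adjusted p = 0.99) and 0.14 (95% CI -0.031 to 0.31, limma adjusted p = 0.52). HSPE1 gave 9187, 11159 and 9903 in boars and 10645, 11435 and 11188 in barrows, where boar replicate 2 reached into the barrow range.

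J-domain proteins choose the clients of HSP70 and were the most numerous group. Of the 22 tested none passed, 11 lay above and 11 below 0, and the median was 0.049. DNAJC6, or auxilin, which recruits HSPA8 to clathrin coats, was dim, with 109, 79.4 and 82 in boars and 139, 123 and 144 in barrows. Its barrow pools all exceeded its boar pools, and its difference of 0.52 (95% CI 0.10 to 0.94, limma adjusted p = 0.29) was the widest of the J-domain genes. Its mean in boars, 6.72 in log2(signal + 16), was under 6.76, the level that a probe set's overall mean had to reach to be tested. Boar levels of DNAJC6 may therefore be background. DNAJC19, part of the motor that draws proteins into mitochondria, gave 1179.7, 1127 and 1349 in boars and 1286, 1744 and 1566 in barrows. Barrow replicate 1 fell inside the boar range, and the other barrow pools lay above it (difference 0.32, 95% CI 0.055 to 0.58, limma adjusted p = 0.30).

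DNAJB1, or HSP40, the heat-inducible partner of HSP70, gave 1394, 1432 and 1585 in boars and 1746, 1587 and 1695 in barrows. The groups just failed to overlap, and the difference of 0.19 did not pass (95% CI -0.0018 to 0.38, limma adjusted p = 0.42). DNAJB4, a related heat-inducible gene, differed by 0.24 (limma adjusted p = 0.62), a value carried by barrow replicate 3 at 3919 against 2208 to 2814 in the other 5 pools. Without that pool the DNAJB4 difference was 0.029. DNAJA1, a farnesylated partner of HSPA8, differed by -0.055 (95% CI -0.24 to 0.12, limma adjusted p = 0.85). DNAJB14, anchored in the endoplasmic reticulum membrane, gave 465, 472 and 476 in boars and 407, 368 and 426 in barrows, with no overlap (difference -0.23, limma adjusted p = 0.43). The J-domain genes not named here with a value ran between these extremes, with limma adjusted p of 0.56 or more.

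All 4 BAG genes had differences above 0, and none passed. BAG3, a heat-inducible exchange factor that works with HSPB8 and CRYAB on damaged filament proteins, gave 2029, 2400.3 and 1782 in boars and 2589, 2221 and 2783 in barrows. Barrow replicate 2 lay below boar replicate 2, so the groups overlapped (difference 0.29, 95% CI 0.030 to 0.55, limma adjusted p = 0.35). Its other probe set had 0.19 (limma adjusted p = 0.61). BAG1, an exchange factor that also binds steroid receptors, had 0.11 (limma adjusted p = 0.69), BAG5 0.081 and BAG6, which delivers tail-anchored proteins, 0.0037. HSPBP1, which opens the nucleotide pocket of HSP70, was dim and had the most negative difference of the 55 genes, -0.37 (95% CI -0.91 to 0.18, limma adjusted p = 0.61). Its pools overlapped, with 131, 111 and 107 in boars and 55.6, 94.3 and 119.6 in barrows. The barrow mean of HSPBP1, 6.68 on the log2 scale, was under 6.76, the level that a probe set's overall mean had to reach. It was thus tested through its boar pools, with a boar mean of 7.04, and its barrow levels may be background.

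Other probe sets of the same genes gave a mixed picture. Of 25 genes with several probe sets, 19 had more than 1 tested, and the differences had one sign in 13 and both signs in 6. None of the second probe sets passed, and the most different of them was a dim HSPA13 probe set at -0.38, against -0.015 in the brightest one. The HSPA9 probe sets had -0.013, -0.027 and -0.094, and those of HSPA8 -0.046, -0.28, 0.19 and 0.22, the last 3 being dim.

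**Figure D4:**
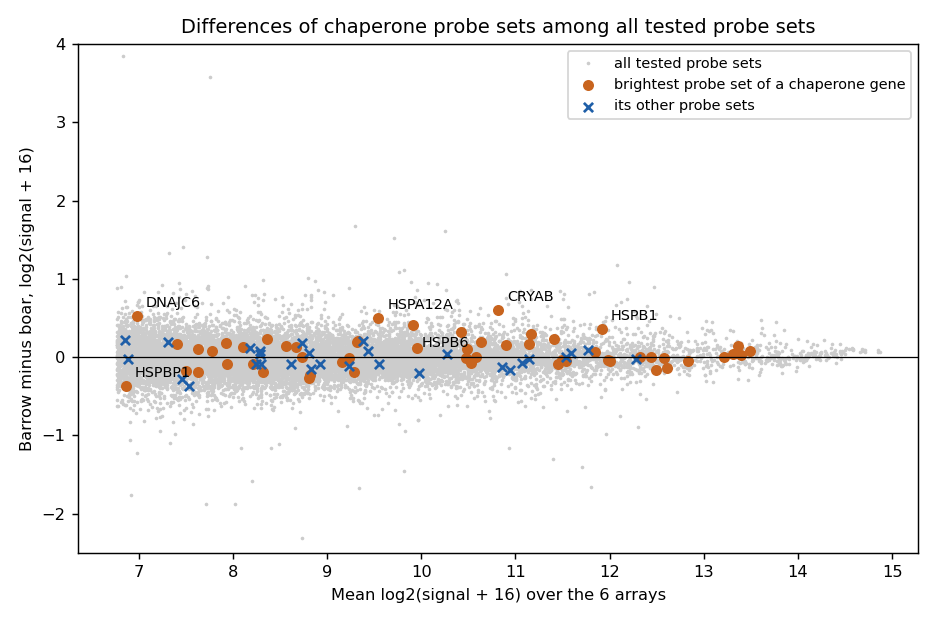
Difference between barrow and boar against the mean log2(signal + 16) over the 6 arrays for all 14399 tested probe sets (grey), with the brightest probe set of each chaperone gene as an orange circle and its other tested probe sets as blue crosses. The orange circles lie between -0.37 and 0.60, inside the range of the grey points, with CRYAB the highest.

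Genes that work with the chaperones but carry other symbols were read from lists. In the heat shock factors, which switch on heat shock genes, 0 of 3 tested genes passed. HSF1, the main factor, gave 343, 412 and 537 in boars and 555, 599 and 529 in barrows, with boar replicate 3 reaching the barrow range (difference 0.39, 95% CI 0.055 to 0.73, limma adjusted p = 0.32), and HSF2 had -0.18 (limma adjusted p = 0.55). In the HSP90 and HSP70 cochaperones 0 of 12 passed, and the median was -0.041. ST13, which steadies HSP70 on its client, gave 9125, 8526 and 9221 in boars and 7723, 8068 and 7148 in barrows, with no overlap (difference -0.23, 95% CI -0.38 to -0.075, limma adjusted p = 0.18). FKBP5, the glucocorticoid-inducible immunophilin of steroid receptor complexes, had -0.17 (95% CI -0.38 to 0.045, limma adjusted p = 0.54), and FKBP4, its counterpart, 0.16 (limma adjusted p = 0.67).

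In the list of folding in the endoplasmic reticulum 0 of 10 tested genes passed and 8 had differences below 0 (median -0.10), from -0.18 for CRELD2 to 0.17 for ERP29 (limma adjusted p = 0.45). PDIA3, a disulphide isomerase for glycoproteins, had -0.17 (limma adjusted p = 0.50). In the unfolded protein response 5 of 11 listed genes were tested and 0 passed. Its transcription factor ATF4 gave 7112, 6334 and 6888 in boars and 7793, 8194 and 7498 in barrows, and DDIT3, or CHOP, a target of ATF4, gave 773, 794 and 808 and 926, 1229 and 824. In both genes every barrow pool was above every boar pool, but neither passed (differences 0.21 and 0.30, limma adjusted p = 0.24 and 0.40). XBP1, the factor of another branch, had -0.062 (limma adjusted p = 0.78).

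Of 5 tested prefoldin subunits, which hand actin and tubulin to the CCT ring, 0 passed. PFDN5 had the smallest p, with 1220.4, 1083 and 1113 in boars and 876, 959 and 983 in barrows (difference -0.27, limma adjusted p = 0.24), followed by PFDN1 at 0.19 (limma adjusted p = 0.55). Among 3 tested genes of mitochondrial folding and proteolysis 0 passed. LONP1, the matrix protease that removes oxidised proteins, gave 1368, 1321 and 1209.9 in boars and 1534, 1728 and 1643 in barrows, with barrows above boars throughout (difference 0.33, 95% CI 0.13 to 0.52, limma adjusted p = 0.13, and 0.090 with the block), and YME1L1, an inner membrane protease, had -0.15 (limma adjusted p = 0.46). The immediate early genes, which answer tissue handling within minutes and share stress as a trigger with the inducible chaperones, had 2 of 7 lower in barrows, DUSP1 at -0.76 and EGR1 at -0.52 (limma adjusted p = 0.00072 and 0.021, beside 0.458% of all tested probe sets lower). Only 1 of the 2 was called without the trend, with means of probe sets, and without boar replicate 1 or 3 or barrow replicate 1 or 3. Over the 7 genes 3 had differences above 0 and 4 below, with a median of -0.026. FOS and JUN had -0.026 and 0.015, ATF3 and ZFP36 0.12 and 0.11, and IER2 -0.18. The summed signal of the 7 was 14413 to 14560.3 in boars and 11232 to 12598 in barrows. Within that sum the mean of DUSP1 alone went from 5752 in boars to 3392 in barrows. Of the 9 tested chaperone genes listed as stress-inducible 6 had differences above 0 and 3 below, from -0.17 for HSPA6 to 0.35 for HSPB1. None of the 9 passed, but the list leaves out CRYAB, which was called, and the heat-inducible DNAJB4. Whether handling had a part in any of these differences was not tested.

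**Figure D5:**
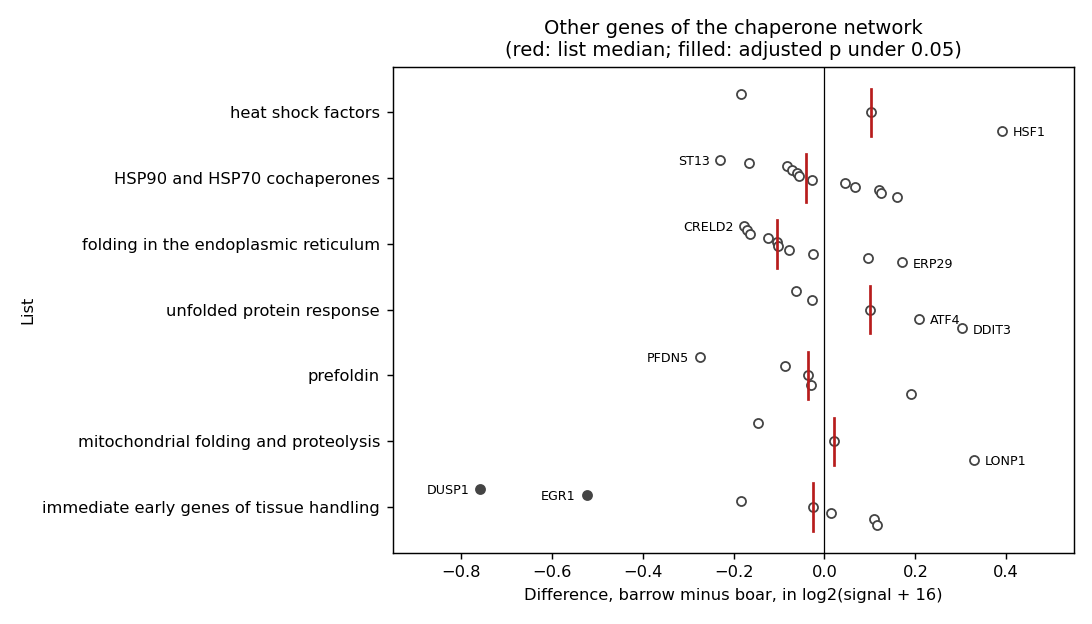
Difference between barrow and boar in log2(signal + 16) for the tested genes of 7 lists of the wider chaperone network, 1 point per gene, with a red line for the list median and filled points where the limma adjusted p was under 0.05. DUSP1 and EGR1 are the filled points, at -0.76 and -0.52, and 8 of the 10 genes of endoplasmic reticulum folding lie left of 0.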

How the data were processed

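Backfat RNA pools of 3 boar and 3 barrow groups were measured on Affymetrix Porcine arrays, 1 array per pool. The deposited values are signal intensity on a linear scale, made by the authors with MAS5 per the submitters' processing notes (no source used here names its version or settings). The values show that each array was scaled to 1 trimmed mean (500.09 to 500.1). Detection calls were not used here. The number of arrays limits the precision, and signals of dim probe sets are noisy.

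Intensities were transformed to log2(signal + 16), a scale on which folds of dim genes come out too small. Of 24123 probe sets 124 controls were left out, and the upper 60% by mean (14399) were tested with limma 3.58.1 in R 4.3.3 (lmFit, eBayes with intensity trend, 2-sided), Benjamini-Hochberg adjusted at 0.05. Python 3.11.15 with matplotlib 3.10.9 drew the figures. Gene names came from the platform annotation, where 10099 probe sets had 1 symbol, 198 several and 13826 none. Of the 58 genes 57 matched the RefSeq table (Sscrofa11.1) by gene identifier, all 57 with an unchanged symbol. Levels of different probe sets are not comparable. No sequence was used here.

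The members, lists and tests were chosen with earlier results of these data known. Genes described with values were those past the threshold with or without the replicate block, those with an unadjusted p under 0.05, the 3 brightest and 2 most different per family, stress-inducible members, and 2 per list by p. Other genes described here were chosen after their values were seen.

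Residuals of pools with the same replicate number correlated at 0.12, 0.17 and 0.26 (other combinations -0.19 to -0.011), all over 0.1. The design text also splits brothers between pools, without saying which numbers match. All fits, intervals and figures are unpaired except where the block is named, and the block is given where it changes a call. The fit was tested on simulated data. HSP70.2 was counted with the HSP70 family. Alternatives were other pseudocounts, filters, scalings, array weights, no trend, means of probe sets, the block and leaving out each array.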

Additional observations from a re-analysis of the deposited data

How the results depend on the processing

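The count of chaperone genes called higher, 1, became 3 with the replicate block, 2 with array weights (CRYAB and HSPB1), 0 without the intensity trend and 0 with the mean of all probe sets of a gene, and ran from 0 to 1 when 1 array was left out. It was 0 when that array was boar replicate 1 or boar replicate 3. With the mean over tested probe sets, an alternative chosen after seeing the data, CRYAB was called with a limma adjusted p of 0.0077. The count of genes called lower was 0 in every fit run. With limma 2 chaperone genes had lower signals at an unadjusted p under 0.05. All called probe sets numbered 167, and 96 without a filter, 32 without the trend, 425 with array weights, 338 with the replicate block and 24 to 291 when 1 array was left out (24 and 31 when this was boar replicate 1 or 3, 53 and 66 for barrow replicate 1 or 3, and 291 for barrow replicate 2). CRYAB kept its direction in all 17 alternatives, with differences from 0.24 to 0.63, and the call in 13. With the replicate block HSPB6 and HSPA12A passed and CRYAB stayed called, and no other chaperone call changed.

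Signs turned for 9 genes named above, none with an adjusted p under 0.61 when turned. These were CCT2 with quantile normalization (-0.0098), HSP70.2 and HSPD1 with centred arrays (0.010 and 0.0089), HSP70.2 and HSPA8 with array weights (0.033 and 0.0080), and BAG1 and HSPA8 with either mean of probe sets (-0.0035 and 0.022). When 1 array was left out the differences ran from -0.059 to 0.080 for BAG6, -0.035 to 0.046 for CCT2, -0.10 to 0.12 for HSP70.2, -0.059 to 0.031 for HSPD1, -0.034 to 0.065 for HSPA5, -0.11 to 0.022 for DNAJA1, -0.0078 to 0.23 for DNAJB9 and -0.093 to 0.046 for HSPA8. The cause of these changes was not tested. Signals near background limit what can be said of HSPB3, HSPB7, HSPB8, DNAJC6, HSPA6 and HSPBP1.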
